A study of Sus scrofa with 8 samples.

Results

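Annexins are calcium-dependent proteins that bind acidic phospholipids and lie along the inner face, and in part on the outer surface, of cell membranes. They act in membrane organisation, vesicle traffic, membrane repair and the control of inflammation. In cattle, annexins of the oviduct epithelium bind proteins of seminal plasma that coat the sperm head, which made them candidates for the attachment of spermatozoa to the oviduct wall. The annexin genes followed here were ANXA1, ANXA2, ANXA3, ANXA4, ANXA5, ANXA6, ANXA7, ANXA8 and ANXA11, and the probe sets were taken wherever the platform annotation gives one of these as the only gene symbol. This found 5 of these 9 genes among the 6765 gene symbols of the array, on 6 of its 24123 probe sets: ANXA1, ANXA2, ANXA5 and ANXA11 with 1 probe set each and ANXA4 with 2. For ANXA3, ANXA6, ANXA7 and ANXA8 no probe set carried that symbol, and these 4 genes were not analysed here.

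The question of the study was whether the oviduct responds differently to Y- and X-bearing spermatozoa. In each of 4 weaned Landrace × Large White sows before ovulation, one oviduct received flow-sorted Y-bearing spermatozoa and the opposite oviduct received flow-sorted X-bearing spermatozoa, each dose pooled from several boars. Sorting left a small share of the other sperm type in each dose. Both uterine horns were stapled shut, and the mucosa was scraped 24 h after insemination. This gave 4 arrays with Y-spermatozoa (Y1 to Y4) and 4 with X-spermatozoa (X1 to X4). Arrays with the same number were taken to come from the same sow, as the labels number the replicates but name no sow. There was no oviduct without spermatozoa, and neither the age of the sows nor the side that received each sperm type is given in the sources used here. The signals are linear intensities scaled by the authors. The tests used quantile normalized log2 values of 23999 probe sets in limma, two-sided, and each difference is Y-spermatozoa minus X-spermatozoa.

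The scraped material carried the epithelial markers of an oviduct. All 5 epithelial genes (EPCAM, KRT8, KRT18, CDH1, CLDN4) lay above the background level on 8 of 8 arrays, with summed signals of 7345 to 8816 with Y-spermatozoa and 6625 to 7605 with X-spermatozoa. OVGP1, the oviduct glycoprotein of secretory cells, had signals of 7769 to 9315 with Y-spermatozoa and 5841 to 8469 with X-spermatozoa. Of the other lists, TEKT1 was the 1 of 5 ciliated cell genes measured (288 to 494 with Y-spermatozoa, 259 to 408 with X-spermatozoa), and the 4 of 5 smooth muscle genes measured summed to 1129 to 3804 with Y-spermatozoa and 1623 to 4609 with X-spermatozoa. The 4 endothelial genes summed to 181 to 390 with Y-spermatozoa and 210 to 336 with X-spermatozoa. The 4 of 5 leukocyte genes measured summed to 48.8 to 109 with Y-spermatozoa and 58.6 to 68.6 with X-spermatozoa, and HBB of red cells stood at 163 to 204 with Y-spermatozoa and 168 to 237 with X-spermatozoa. Of all marker genes, only PTPRC of leukocytes and PRM1 of spermatozoa passed an unadjusted p under 0.05 in limma, both higher with Y-spermatozoa in 4 of 4 sows, and PTPRC was above background on 2 of 8 arrays and PRM1 on none. None of the 4 of 5 spermatozoa genes measured (PRM1, PRM2, TNP2, ODF1) was above background on all 8 arrays, and ODF1 was so on none. The hybridisation controls, RNA added to every array in fixed amounts, had mean log2 signals of 9.87 to 10.09 on Y-spermatozoa arrays and of 9.59 to 9.83 on X-spermatozoa arrays, with no overlap. The part of these cell type and array differences in the results below was not tested, except where an alternative fit is named. The fit with the hybridisation controls as a covariate can hardly tell them apart from the sperm type, since they did not overlap.

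All 6 annexin probe sets were measured far above background, which is the 95th percentile of the 81 probe sets that have no pig target on each array. It lay at 8.5 to 10.7 with Y-spermatozoa and 10.3 to 12.3 with X-spermatozoa, and each annexin value was at least 21.7 times the level of its own array. None of the 6 differed between Y- and X-spermatozoa at an unadjusted p under 0.05 in limma, where 3.56% of all probe sets did (855 of 23999, 1.62% higher and 1.94% lower with Y-spermatozoa). Under the scaling of the authors the calls over all probe sets were 271 higher and 631 lower, against 389 higher and 466 lower here, and again no annexin was among them. None of the 6 had all Y-spermatozoa arrays on one side of all X-spermatozoa arrays, where 2.07% of all probe sets did. Every adjusted p of the 6 was 1 (limma, Benjamini-Hochberg over 23999 probe sets), and 0% of all probe sets passed adjustment. The log2 difference was above 0 for 5 of the 6 annexin probe sets, with a median of 0.02 beside a median of 0.00 over all probe sets, of which 50.7% were above 0. The median size of the difference, whatever its sign, was 0.07 over the annexin probe sets and 0.09 over the 11999 probe sets with a signal above the median. In bulk scrapings, fewer cells of a type and less RNA per cell cannot be told apart.

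**Figure D1:**
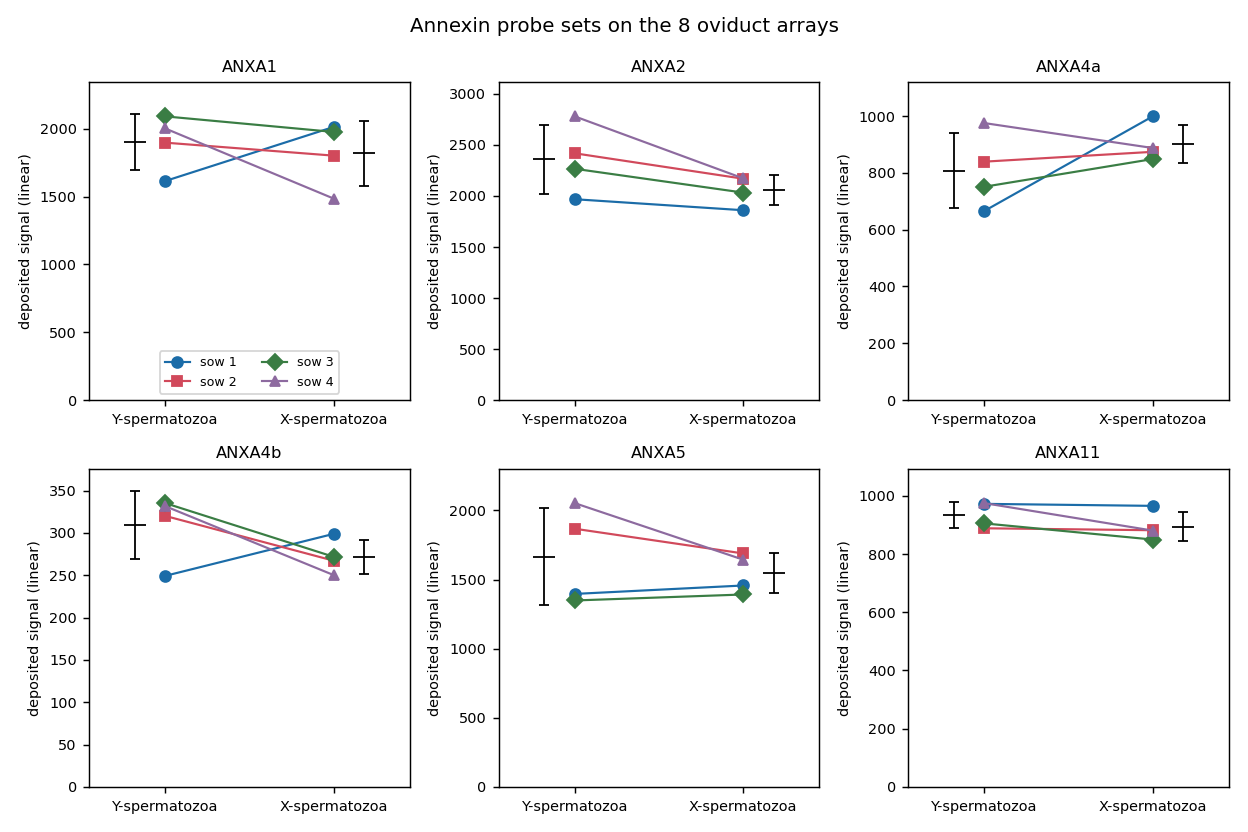
Deposited linear signal (vertical axis, from 0) of the 6 annexin probe sets with Y-spermatozoa (left) and X-spermatozoa (right). Points are arrays, lines join the oviducts of a sow, and black bars give mean and SD (n = 4). For ANXA2 and ANXA11 all 4 lines are higher at the Y-spermatozoa end, for ANXA2 by 0.08 to 0.36 and for ANXA11 by 0.01 to 0.15 on the log2 scale of these signals, and for each probe set the groups overlap.

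ANXA2, which forms a complex with S100A10 at the cell surface and there binds plasminogen and its activator, had the higher value on the Y-spermatozoa side in every sow, both in the deposited signals and after quantile normalization. Its deposited signals were 1968, 2418, 2266 and 2780 on Y1 to Y4, against 1860, 2169, 2033 and 2173 on X1 to X4. The array Y4 stood above the other 7, X1 was the lowest, and the groups overlapped because Y1 lay below X2, X3 and X4. The means were 2358 ± 338 with Y-spermatozoa and 2059 ± 147 with X-spermatozoa (SD, n = 4 each). The log2 difference was 0.11 (standard error 0.11, 95% interval -0.15 to 0.37), which as a fold is 1.08 (0.902 to 1.29). Neither limma (unadjusted p = 0.351) nor an exact two-sided permutation test over 70 relabellings (p = 0.20) passed. Both leave out the pairing of oviducts, as do the tests of the other annexins below. In limma with the sow as a block the standard error was 0.09 and the unadjusted p was 0.261. The within-sow log2 differences after quantile normalization ran from 0.05 in sow 1 to 0.17 in sow 4. A value higher with Y-spermatozoa in every sow was found for 6.44% of all probe sets, and a lower value in every sow for 6.71% (both after quantile normalization). Under the scaling of the authors the log2 difference of ANXA2 was 0.19 and after median centring of the arrays 0.22, and it passed in neither fit. Without Y4 it was 0.05.

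ANXA1, an anti-inflammatory annexin that acts through formyl peptide receptors, had signals of 1615, 1898, 2092 and 2003 on Y1 to Y4, against 2014, 1802, 1977 and 1486 on X1 to X4. The lowest array of the 8 was X4 and the next was Y1, so the 2 low arrays came from different groups and different sows. The means were 1902 ± 207 with Y-spermatozoa and 1820 ± 241 with X-spermatozoa (SD, n = 4 each), a log2 difference of 0.01 (standard error 0.16, 95% interval -0.37 to 0.38, unadjusted p = 0.970 in limma and 0.914 in the exact permutation test). Within sows the log2 difference was -0.34 in sow 1, -0.0049 in sow 2, 0.09 in sow 3 and 0.28 in sow 4, so that the sows did not share a direction. Leaving out 1 of the arrays Y3, X2 or X4 turned the small pooled value negative, and with the hybridisation controls as a covariate it was 0.25 (standard error 0.34).

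ANXA5 binds phosphatidylserine and is widely used to stain dying cells. Its signals were 1396, 1867, 1348 and 2053 on Y1 to Y4, against 1457, 1689, 1392 and 1644 on X1 to X4. The 4 highest arrays were Y4, Y2, X2 and X4, that is both oviducts of sow 2 and of sow 4, and the lowest was Y3. The means were 1666 ± 348 with Y-spermatozoa and 1545 ± 143 with X-spermatozoa (SD, n = 4 each), a log2 difference of 0.01 (standard error 0.13, 95% interval -0.29 to 0.31, unadjusted p = 0.956 in limma and 0.914 in the exact permutation test). The difference was above 0 in sows 2 and 4 and below 0 in sows 1 and 3, between -0.13 and 0.15. Without Y2, Y4, X1 or X3 the pooled value turned negative.

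ANXA11 has a long N-terminal region, binds the calcium sensor PDCD6 and acts in vesicle transport. Its signals were 973, 889, 906 and 975 on Y1 to Y4, against 966, 882, 850 and 881 on X1 to X4. These 8 values lay within a 1.15-fold range, the narrowest of the 6 probe sets. Of the 11999 probe sets in the brighter part of the array, 1.88% had a smaller standard deviation over the 8 arrays on the normalized log2 scale. The means were 935 ± 44.9 with Y-spermatozoa and 895 ± 49.7 with X-spermatozoa (SD, n = 4 each), a log2 difference of 0.04 (standard error 0.10, 95% interval -0.19 to 0.26, unadjusted p = 0.726 in limma and 0.543 in the exact permutation test). Its value was the higher one on the Y-spermatozoa side in 2 of 4 sows after quantile normalization and in 4 of 4 under the scaling of the authors, where the difference was 0.06. The share of all probe sets higher in 4 of 4 sows was not determined under that scaling. Without Y1 the normalized difference was 0.01, and without Y2 it was 0.07.

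ANXA4, an annexin found along the membranes of secretory epithelia, was measured by 2 probe sets whose differences had opposite signs and which are called ANXA4a and ANXA4b here. The suffix of both names in the array design marks probes that match more than one transcript of a gene, and which transcripts each reads is not given in the sources used here. ANXA4a had signals of 666, 839, 751 and 975 on Y1 to Y4, against 999, 874, 849 and 888 on X1 to X4, and was lower with Y-spermatozoa in 3 of 4 sows. Y1 was the lowest array and X1, from the same sow, the highest, and Y4 also lay above 3 of the X-spermatozoa arrays. The means were 808 ± 132 with Y-spermatozoa and 902 ± 66.4 with X-spermatozoa (SD, n = 4 each), a log2 difference of -0.21 (standard error 0.14, 95% interval -0.53 to 0.11, unadjusted p = 0.173 in limma and 0.171 in the exact permutation test). With the hybridisation controls as a covariate this difference turned positive, at 0.09 (standard error 0.28). It was -0.12 without Y1, and -0.07 in the blocked fit that omitted sow 1.

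The other probe set, ANXA4b, had signals of 249, 320, 335 and 332 on Y1 to Y4, against 299, 267, 272 and 250.1 on X1 to X4. The arrays Y2, Y3 and Y4 lay above all X-spermatozoa arrays and Y1 lay below all of them. The means were 309 ± 40.4 with Y-spermatozoa and 272 ± 20.2 with X-spermatozoa (SD, n = 4 each), a log2 difference of 0.17 (standard error 0.13, 95% interval -0.14 to 0.48, unadjusted p = 0.231 in limma and 0.20 in the exact permutation test). Without Y1 the difference was 0.27 (standard error 0.11) and passed an unadjusted p under 0.05 in limma, and without sow 1 and with the sow as a block it was 0.32 (standard error 0.10) and passed too. It passed in neither fit after adjustment. Of all 23999 probe sets, 969 passed an unadjusted p in the fit without Y1 and 1148 in the blocked fit without sow 1. With all arrays there was no call, and only fits without Y1 gave one. In the fit with the hybridisation covariate the difference was 0.48 (standard error 0.26) and did not pass.

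**Figure D2:**
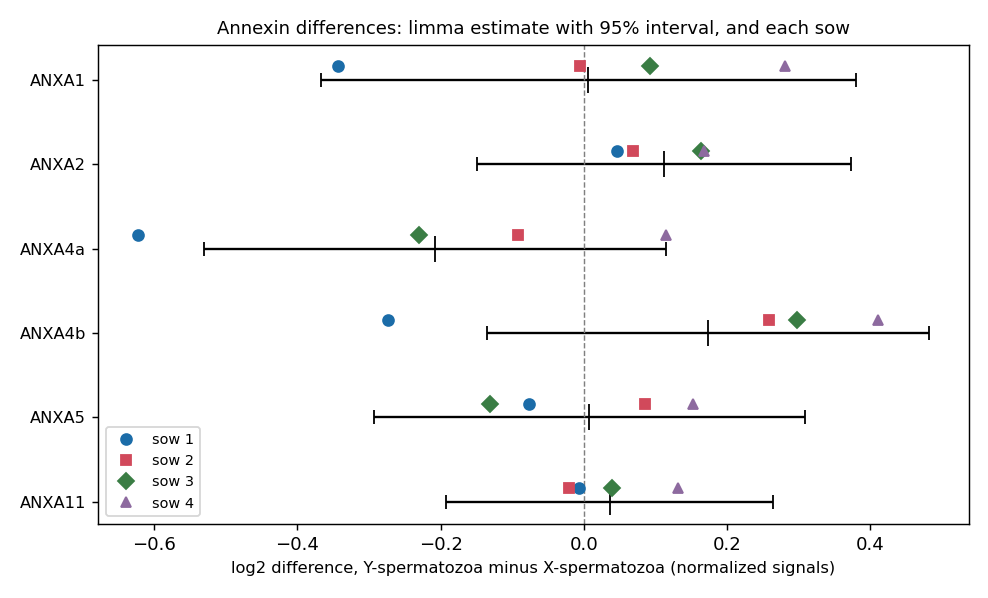
Log2 difference of the normalized signals, Y-spermatozoa minus X-spermatozoa (horizontal axis), for the 6 annexin probe sets. Black bars are the limma estimates with 95% intervals, coloured points the 4 sows. Each interval includes 0, and in sow 4 all 6 points lie above 0 while in sow 1 only that of ANXA2 does.

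Since both ANXA4 probe sets sit on the same array, their ratio does not depend on the scaling factor of an array. The ratio of ANXA4a to ANXA4b was 2.67, 2.62, 2.24 and 2.94 on Y1 to Y4, against 3.34, 3.27, 3.12 and 3.55 on X1 to X4. Every Y-spermatozoa array lay below every X-spermatozoa array, in sow 1 as in the others. The mean ratio was 2.62 ± 0.289 with Y-spermatozoa and 3.32 ± 0.177 with X-spermatozoa (SD, n = 4 each), a shift of -0.35 on the log2 scale. In the exact two-sided permutation test p was 0.0286, the smallest that 4 arrays against 4 allow. It was 0.0286 without any 1 of the Y-spermatozoa arrays and 0.0571 without any 1 of the X-spermatozoa arrays. The smallest p of 3 arrays against 4 is also 0.0286. As the groups were fully separated, no other p could arise without 1 array, so these values are no separate check. When the sign was flipped within sows instead, as the pairing asks, the exact p was 0.125, the smallest possible with 4 sows. The ratio was chosen after both probe sets had been seen to differ in opposite directions, so its separation and its p restate that choice and are given as a description. Of 2544 pairs of probe sets of 1 gene that were above background on all 8 arrays, 2.91% had ratios that separated the groups in this way, and 9.59% had a shift at least as large.

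**Figure D3:**
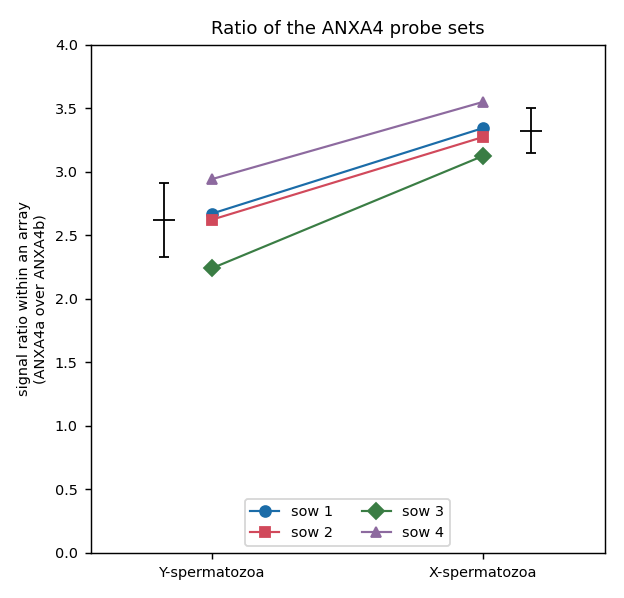
Ratio of the signals of the ANXA4 probe sets within each array (vertical axis, from 0) with Y-spermatozoa (left) and X-spermatozoa (right). Lines join the oviducts of a sow and black bars give mean and SD (n = 4). The 4 ratios with Y-spermatozoa, 2.24 to 2.94, all lie below the 4 with X-spermatozoa, 3.12 to 3.55.

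The direction of the annexin values differed between sows. In sow 4 all 6 annexin probe sets were higher with Y-spermatozoa, at a median log2 difference of 0.16, whereas in sow 1 the value was lower for 5 of 6, at a median of -0.18 (both after quantile normalization). Sows 2 and 3 lay between them, with 3 and 4 of 6 probe sets higher and medians of 0.03 and 0.07. In the deposited signals 2 of 6 probe sets were higher in sow 1, 5 in sow 2, 4 in sow 3 and 6 in sow 4. Over all probe sets, after quantile normalization, the medians of the 4 sows were 0.00, and 48.5% to 50.3% were higher with Y-spermatozoa. Such shares were not determined for the deposited signals, so the counts on that scale have no background beside them. The 6 values of a sow come from the same pair of arrays and are not independent of each other. Each sow was sampled once per side, so the sow, the array and any handling of that pair cannot be told apart.

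Differences between animals, irrespective of the sperm type, were tested with sow terms beside the group term. None of the 6 annexin probe sets passed an unadjusted p under 0.05 for the sow terms in limma, where 14.2% of all probe sets did (3406 of 23999). After adjustment 0% of all probe sets passed, but in simulated data the adjusted sow test also found 0% of changes of 2 log2 units in 1 sow (97.5% unadjusted), so a count of 0 after adjustment says nothing about differences between sows. The smallest adjusted p among the annexins was that of ANXA5 (0.546 in limma). Its sow means differed by up to 0.29 on the log2 scale, those of ANXA1 by up to 0.41 and those of ANXA2 by up to 0.25, with sow 4 the highest for ANXA2 and ANXA5 and the lowest for ANXA1.

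Among the partners of annexins, S100A10 (the light chain of the ANXA2 complex), S100A11 (which binds ANXA1), PDCD6 and SRI (calcium sensors of the penta-EF-hand family that bind annexins), PLAT (tissue plasminogen activator) and PLG (plasminogen) were measured, 6 of 12 genes listed. None passed an unadjusted limma p under 0.05 in either direction, and their median log2 difference was 0.08. PLG, which enters this median, was below background on all 8 arrays, and the other 5 genes were above it on all 8. S100A10 had signals of 302, 632, 434 and 816 on Y1 to Y4, against 386, 500.1, 482 and 540.3 on X1 to X4, a log2 difference of 0.10 (standard error 0.30, limma adjusted p = 1). S100A11 had signals of 362, 871, 549 and 1024 on Y1 to Y4, against 426, 696, 510 and 639 on X1 to X4, a log2 difference of 0.20 (standard error 0.33, limma adjusted p = 1). For both S100 genes the 4 highest arrays were Y4, Y2, X2 and X4, as for ANXA5. The same 4 arrays were the highest for KRT8, KRT18, HSPA5 and HSP90B1, so the pattern was not particular to annexin partners. PDCD6 and SRI did not show it, and its share over all probe sets was not determined. PDCD6 averaged 682 ± 41.8 with Y-spermatozoa and 641 ± 28.3 with X-spermatozoa (SD, n = 4 each), a log2 difference of 0.06. SRI averaged 530 ± 122 with Y-spermatozoa and 475 ± 76.2 with X-spermatozoa, a log2 difference of 0.12.

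**Figure D4:**
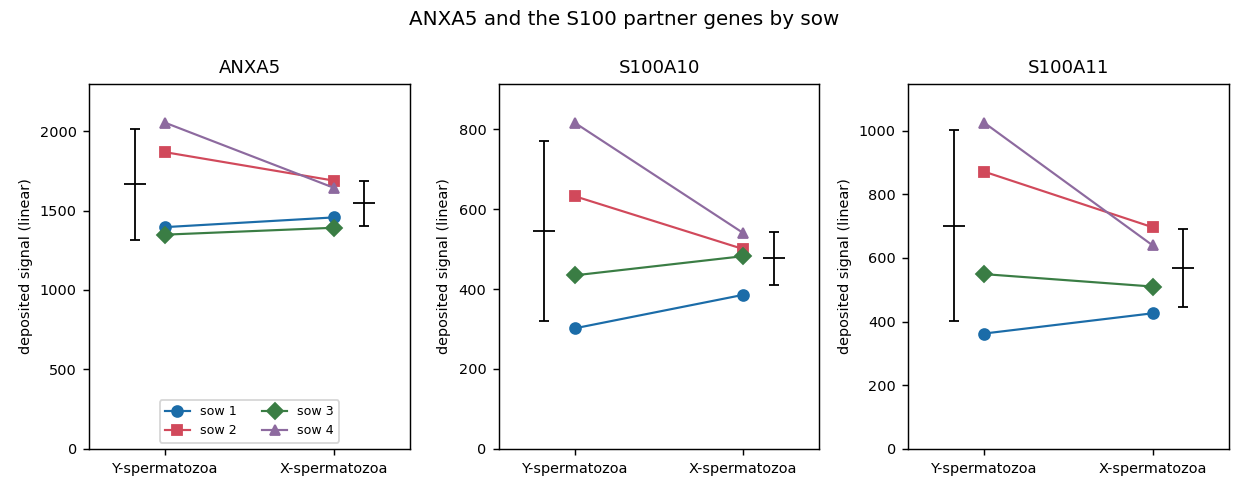
Deposited linear signal (vertical axes, from 0) of ANXA5, S100A10 and S100A11 with Y-spermatozoa (left) and X-spermatozoa (right). Lines join the oviducts of a sow and black bars give mean and SD (n = 4). In each panel both arrays of sows 2 and 4 lie above both arrays of sows 1 and 3, for ANXA5 at 1644 to 2053 against 1348 to 1457.

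As a description over the 8 arrays, which come from 4 sows and are not independent, the correlation of normalized log2 values was 0.846 for ANXA5 with S100A11 and 0.845 with S100A10. It was 0.66 for ANXA2 with S100A10, -0.26 for ANXA2 with PLAT and -0.33 for ANXA1 with S100A11. For ANXA11 it was -0.25 with PDCD6 and -0.06 with SRI. A few pairs with cell type markers were picked by hand, and other markers were not looked at. For ANXA5 the value was 0.76 with KRT18, -0.09 with EPCAM and 0.59 with ACTA2 of smooth muscle. For ANXA2 it was 0.43 with KRT18 and 0.47 with EPCAM, and for ANXA1 it was 0.72 with TEKT1 of ciliated cells. Single markers do not stand for a cell type here. Among the annexins themselves the values ran from -0.56 for ANXA1 with ANXA5 to 0.53 for ANXA4b with ANXA1 and with ANXA2, and the ANXA4 probe sets correlated with each other by 0.26.

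The genes most like each of the annexins that bind seminal plasma proteins in cattle were sought by Pearson r over the 8 arrays, among 1047 named probe sets that were at least average in both signal and spread (mean above, and standard deviation not below, the median of all). ANXA5 was most like LAMB1 (0.97), a laminin chain of basement membranes, CLEC3B (0.96), which encodes tetranectin, a plasminogen-binding protein, and CKAP4 (0.95), a membrane protein of the endoplasmic reticulum. ANXA2 was most like SDC1 (0.92), a heparan sulphate proteoglycan of epithelial surfaces, ST6GALNAC4 (0.90), a sialyltransferase, and MMP7 (0.90), an epithelial matrix protease. The probe set ANXA4a was most like LAMC1 (0.96), another laminin chain, MRPS9 (0.90) of the mitochondrial ribosome and IRF2BP1 (0.88), a transcriptional corepressor. ANXA1 was most like MAP4 (0.90), which binds microtubules, RHOBTB1 (0.86) and PLAC8 (0.84). The highest of many correlations over 8 arrays can be large by selection alone, and these values carry no test.

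The other proteins proposed to hold spermatozoa in the oviduct did not pass either. All 12 listed genes were measured, none with an unadjusted limma p under 0.05, and their median log2 difference was 0.02. ITGA5 was above background on only 3 of 8 arrays, the other 11 genes on all 8. OVGP1 averaged 8674 ± 676 with Y-spermatozoa and 7159 ± 1170 with X-spermatozoa (SD, n = 4 each), but its log2 difference after quantile normalization was 0.02 (standard error 0.12). HSPA5, a chaperone that also occurs on the cell surface, had a log2 difference of -0.07, HSP90B1 one of -0.01 and HSPA8 one of 0.01. SPP1 (osteopontin), named after its values were seen, had signals of 9637 to 10825 with Y-spermatozoa and 7161 to 9128 with X-spermatozoa. Its groups did not overlap on the scale of the authors, where the log2 difference was 0.36 and passed an unadjusted p under 0.05 in limma, but after quantile normalization the difference was 0.08 (standard error 0.09) and did not pass. ANXA9, ANXA10 and ANXA13 were not found under these symbols and were not analysed here.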

How the data were processed

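Total RNA of scraped oviduct mucosa was hybridised to Affymetrix Porcine Genome arrays, 1 array per oviduct. The authors deposited intensities on a linear scale, a single signal for every probe set, from MAS5 (Microarray Suite) 5.1, already scaled to an equal trimmed mean on each array. The methods describe RMA normalization, limma tests and Benjamini-Hochberg correction, and the probe-level values that RMA needs were not used here. No genome build enters these values. Quantile normalization used all 24123 probe sets, after which the 124 AFFX controls were dropped. The log2 was taken with a floor of 1. The choice of scaling between arrays can move bright probe sets, as it did for SPP1. The test was limma 3.58.1 in R 4.3.3 (lmFit, eBayes) on the group means. In simulated data on 23999 probe sets it found, after adjustment, 61% of 100 differences of 1 log2 unit and 95% of 100 differences of 2 log2 units between the groups, all set in brighter probe sets. Differences as small as those of the annexins were not simulated, so these shares do not apply to them. The number of arrays limits the precision.

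Groups and replicate numbers come from the labels, which name no sow. Equal numbers were taken to mark the oviducts of the same sow. The deviations of both arrays of a sow from their group means had correlations of 0.13 to 0.19. Arrays with different numbers were not compared in this way, so these values do not test the pairing. Gene symbols come from the platform annotation, in which 10099 probe sets have 1 symbol, 198 several and 13826 none. The gene table of Sscrofa11.1 held 9989 of the 10297 annotated ones and was used for newer symbols of the related genes. All annexin probe sets are named, and the genes most like an annexin are the 3 with the highest r. Of each related list, up to 4 measured genes are named in list order, besides those that passed, with the probe set of the highest mean signal. The annexins and the lists were chosen with earlier results of these data known. Alternatives were the sow as a fixed or random block, 2 other scalings, a pseudocount of 16, a filter on the median signal, a variance trend, array weights, the 27 hybridisation control probe sets as a covariate, and fits that omitted an array or a sow. The ANXA4 ratio was added after the values were seen. Plots were made in Python 3.11.15 (matplotlib 3.10.9).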

Additional observations from a re-analysis of the deposited data

Results flagged for a closer look

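In 3 of the 12 groups of 4 annexin values, 1 array stood far from the other 3 on the normalized log2 scale (nominally 1 in 20 such groups, for normal and independent values). For ANXA1 with Y-spermatozoa this was Y3, the highest, whose gap to the next array was 0.855 of the whole range. For the probe set ANXA4b with Y-spermatozoa it was Y1, the lowest, with a gap of 0.843 of the range. For the probe set ANXA4a with X-spermatozoa it was X1, the highest, with a gap of 0.834. Both ANXA4 arrays come from sow 1. The 12 groups share the same arrays and are not independent, and the share of all probe sets flagged in this way was not determined. Whether the count is high or low for annexins therefore cannot be said.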

How the results depend on the processing

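The number of annexin probe sets passing an unadjusted p in limma was 0 with the sow as a block (replicate block), as without it, and under every other setting that kept all arrays. With 1 array or sow left out it was 0 to 1, where 770 to 1208 of all 23999 probe sets passed. The block changed no call of an annexin, and over all probe sets 1222 passed with it, against 855 without it. ANXA2 and ANXA11 kept their direction in all 21 alternatives, as did ANXA4b, with ranges of 0.055 to 0.22 for ANXA2, 0.0029 to 0.098 for ANXA11 and 0.091 to 0.48 for ANXA4b. ANXA4a turned positive at 0.092 with the hybridisation controls as a covariate, where its standard error was 0.28 against 0.14 without it. The controls did not overlap between the groups, so this fit can hardly tell them apart from the sperm type. The cause of the change was not tested. Without 1 array or sow it ranged from -0.32 to -0.07. Without 1 array, the log2 difference of ANXA1 ranged from -0.11 to 0.085 and that of ANXA5 from -0.064 to 0.076. Without 1 sow and with the replicate block, ANXA1 ranged from -0.089 to 0.13 (-0.021 without sow 3) and ANXA5 from -0.041 to 0.048 (-0.014 without sow 2). The ANXA4 ratio, chosen after the values were seen, had a log2 shift of -0.41 to -0.28 without 1 array and of -0.38 after quantile normalization. As its groups did not overlap, leaving out 1 array could not change its direction.

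Over all probe sets, 1459 passed an unadjusted p with the sow as a random block and 311 with only the brighter ones tested. After adjustment 1 passed with the random block, and 0 to 4 without 1 array or sow. Of the related genes, 1 passed under each of 3 alternatives: SPP1 after median centring and under the scaling of the authors, and PLG, below background on all 8 arrays, with the covariate. Probe sets that differed between sows after adjustment numbered 414 with the pseudocount, 895 with only the brighter ones tested and 209 with a variance trend, and annexins 0 in each.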
